A study of Mus musculus with 8 samples.

Results

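The SLC25 family of mitochondrial solute carriers was examined in epididymal white adipose tissue (eWAT, the visceral fat pad beside the epididymis) of Abhd15 knockout (KO) and wild type (WT) mice. Members were all genes whose probe set carries a single annotated symbol beginning with Slc25a, and 46 of the 22180 genes on the array met this rule, each with 1 probe set. The 8 samples were 3 WT and 5 KO male mice on a C57BL/6J background, 14 weeks old and kept on normal chow, with 1 array per mouse. Every mouse went without food overnight and then had chow again for 1 h before sampling. The KO group carried a deletion of Abhd15, which encodes a hydrolase-fold protein abundant in fat cells. How the deletion was made and whether the mice were littermates were not stated in the labels. The comparison asks which carrier transcripts differ in fat without Abhd15 in the early refed state.

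SLC25 proteins sit mostly in the inner mitochondrial membrane and exchange metabolites, nucleotides and cofactors between the cytosol and the mitochondrial matrix. In adipocytes the citrate carrier feeds cytosolic fatty acid synthesis, and the carnitine carrier brings acyl groups in for oxidation. The ADP/ATP and phosphate carriers serve ATP synthesis, and others supply coenzyme A, NAD, glutathione, iron and amino acids.

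Values are log2 signals from RMA (robust multi-array average), which are not comparable between genes, so each carrier was compared only with itself across mice. Abhd15 itself has 2 probe sets, of which only the one with the higher mean is given here. That probe set read 6.36, 6.45 and 6.15 in WT 1 to WT 3 and 5.77, 6.07, 6.27, 5.60 and 5.75 in KO 1 to KO 5. KO 3 thus lay inside the WT range, and the log2 fold change was -0.43 (SE 0.170, adjusted p = 0.423 in limma). No label places its probes relative to the deleted stretch, so it does not check the genotypes. Array medians over the tested genes were 6.04 to 6.07 in 7 arrays and 5.93 in KO 5. The 9 adipocyte markers measured (among them Adipoq, Plin1, Fabp4 and Cidec) averaged 10.3 to 10.5 in WT and 10.1 to 10.6 in KO. Of them 6 had a lower KO mean and 3 a higher one (median -0.12). KO 5 had the lowest average, and Adipoq read 8.57 there against 9.56 to 9.90 in the other arrays. Lipe, Pnpla2 and Retn were also lowest in KO 5, while Plin1, Fabp4, Lep, Slc2a4 and Cidec were lowest in other arrays. Ucp1, which defines brown adipocytes, read 2.60 to 3.60, under the level filter. Of the 4 tested brown adipocyte markers 3 had a higher KO mean (median 0.38 over the 4), and Prdm16 was lower at -0.31. Cidea, a lipid droplet protein, read 3.38 to 3.77 in WT. It read 5.41, 5.14, 4.05, 3.91 and 4.11 in KO 1 to KO 5, without overlap. Cox8b, a subunit of cytochrome c oxidase, was highest in KO 1 (6.11) and KO 2 (5.64). Of the markers under the filter, KO minus WT was -0.16 for Ucp1, -0.65 for Elovl3 and 0.03 for Zic1. The 12 testis and sperm markers averaged 5.86 in WT 1, 4.87 in WT 2 and 4.52 in KO 4, against 3.15 to 3.76 in the other arrays. The 12 epididymis and seminal vesicle markers averaged 3.40 in WT 1 and 3.43 in KO 4, against 1.90 to 2.16 in the others. Different genes were high in WT 1 and KO 4. In WT 1 these were Svs2 (6.38), Svs4 (6.45), Svs5 (7.43) and Svs6 (5.21). In KO 4 they were Adam7 (10.25), Lcn5 (8.56) and Defb20 (4.68). Adam7 also read 4.93 in KO 3 and 3.73 in KO 5, and Svs5 read 4.51 in WT 2. The 10 immediate early genes averaged 7.06 in KO 1, 7.07 in KO 2 and 6.18 in KO 3, against 5.04 to 5.53 in the rest, and the erythroid gene Slc4a1 read 4.72 in KO 1 and 5.28 in KO 2 against 2.61 to 3.11. Of the 9 endothelial markers, 7 had a lower KO mean (5 with an unadjusted limma p under 0.05, among them Kdr and Pecam1). The other 2 had a higher one (Cldn5 with such a p). In this list 66.7% had such a p, against 10.5% of all tested genes. The 9 markers averaged 7.76 to 8.16 in WT and 7.59 to 7.85 in KO. In whole tissue fewer cells of a type and less RNA per cell cannot be told apart. The part of these cells in the carrier values was not tested.

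Before the values, the stretch upstream of the annotated start is shown for 4 carriers. Slc25a1 and Slc25a20 stand on the synthetic and the oxidative side of fat metabolism, and Slc25a23 and Slc25a24 are paralogues that carry the same substrate and had KO means on opposite sides of WT. The paralogues were thus chosen by their values in these data, although neither passed adjustment. Slc25a51, whose groups also did not overlap, is not shown. Each window is the 250 bases before the start, from RefSeq on build GRCm38.p6, 5′ to 3′ on the gene's strand, and capitals mark the matches to the motifs searched. Slc25a23 has 2 starts in the table and the first listed is shown.

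Slc25a1 (chr16:17928220-17928469, minus strand): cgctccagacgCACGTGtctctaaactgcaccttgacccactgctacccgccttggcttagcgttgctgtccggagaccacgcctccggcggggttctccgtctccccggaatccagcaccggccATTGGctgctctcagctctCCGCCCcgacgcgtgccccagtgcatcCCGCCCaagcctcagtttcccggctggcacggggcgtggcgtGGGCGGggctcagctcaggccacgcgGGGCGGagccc

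Slc25a20 (chr9:108661886-108662135, plus strand): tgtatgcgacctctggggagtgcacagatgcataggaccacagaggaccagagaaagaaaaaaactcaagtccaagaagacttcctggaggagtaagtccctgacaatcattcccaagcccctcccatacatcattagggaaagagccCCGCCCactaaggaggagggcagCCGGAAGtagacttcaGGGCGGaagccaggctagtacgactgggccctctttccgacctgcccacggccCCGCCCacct

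Slc25a23 (chr17:57059864-57060113, minus strand): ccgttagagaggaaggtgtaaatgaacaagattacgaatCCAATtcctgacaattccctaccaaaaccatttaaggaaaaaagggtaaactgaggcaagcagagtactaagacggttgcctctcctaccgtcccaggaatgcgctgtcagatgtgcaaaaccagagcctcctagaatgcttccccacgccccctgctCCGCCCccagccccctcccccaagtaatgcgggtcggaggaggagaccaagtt

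Slc25a24 (chr3:109122899-109123148, plus strand): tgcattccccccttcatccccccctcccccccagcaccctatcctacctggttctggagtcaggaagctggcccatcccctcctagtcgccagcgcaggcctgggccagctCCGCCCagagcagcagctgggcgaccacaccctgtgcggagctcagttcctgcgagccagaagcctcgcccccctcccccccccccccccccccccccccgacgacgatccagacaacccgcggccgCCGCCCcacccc

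The motifs, searched on both strands, were the CCAAT box (those letters), the GC box with the letters GGGCGG, the E-box with CACGTG, and the core of the cyclic AMP response element with TGACG. The ETS site with CCGGAAG, the nuclear receptor site with AGGTCA, the sterol regulatory element with TCACNCCAC and the NRF1 site were searched as well. The Slc25a1 window held 4 GC boxes, 1 CCAAT box and 1 E-box, and was the only 1 of these 4 windows with an E-box. The Slc25a20 window held 3 GC boxes and 1 ETS site. The windows of the paralogues differed in base composition, with 52.4% G and C for Slc25a23 and 72.8% for Slc25a24. The former held 1 CCAAT box and 1 GC box and the latter 2 GC boxes. None of these 4 windows held the letters of the cyclic AMP, nuclear receptor, sterol or NRF1 motifs. Of the 36 SLC25 genes with a window, 24 (66.7%) held a GC box, against 32.7% of all 32851 windows. The members count 1 window per gene, while the full set can hold several per gene and is not limited to genes on the array. These shares are thus on unlike units. The share with a CCAAT box was 44.4% against 33.8%, that with an E-box 16.7% against 6.02%, and that with an ETS site 16.7% against 6.91%. The nuclear receptor site was in 11.1% against 14.0%, the cyclic AMP core in 22.2% against 17.8%, the sterol element in 2.78% against 1.05% and the NRF1 site in 5.56% against 3.74%. Such a match describes the letters only.

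Of the 46 carriers, 33 reached the level filter (a mean over all 8 arrays at or above 3.61, the median over all genes) and were tested among 11090 genes with limma. The nearest tested member was Slc25a27, with a mean of 4.13, and the nearest left out was Slc25a13, with 3.53. No carrier passed an adjusted p of 0.05, and neither did any of the 11090 genes (0% called). The smallest unadjusted p values of the family belonged to Slc25a23, Slc25a51, Slc25a47 and Slc25a1. These 4 of 33 carriers (12.1%) had an unadjusted p under 0.05, close to the 10.5% of all tested genes (1164). Of them 3 (9.09%) were higher in KO, against 4.04% of all tested genes, and 1 (3.03%) was lower, against 6.46%. The groups did not overlap for 3 carriers (9.09%), against 8.53% of all tested genes: 1 was higher in KO (2.99% of all tested genes) and 2 were lower (5.54%). Over both directions these shares were near those of the array as a whole. They depended on the setting, as given further on.

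The direction of the carriers was mixed. The log2 fold change was above 0 in 17 and below 0 in 16, with a median of 0.06 against -0.03 over all tested genes, and it ran from -0.59 (Slc25a51) to 0.59 (Slc25a35). Its size was under 0.1 in 12 carriers and at least 0.3 in 9 (27.3%, against 21.7% of all tested genes). For 30 of the 33 carriers the 95% confidence interval lay within 1 log2 unit of 0 on both sides, and for 14 it lay within 0.5. The spread within groups was also ordinary, with a median pooled SD of 0.24 against 0.23 over all tested genes. The plot of fold changes by role shows these intervals.

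**Figure D1:**
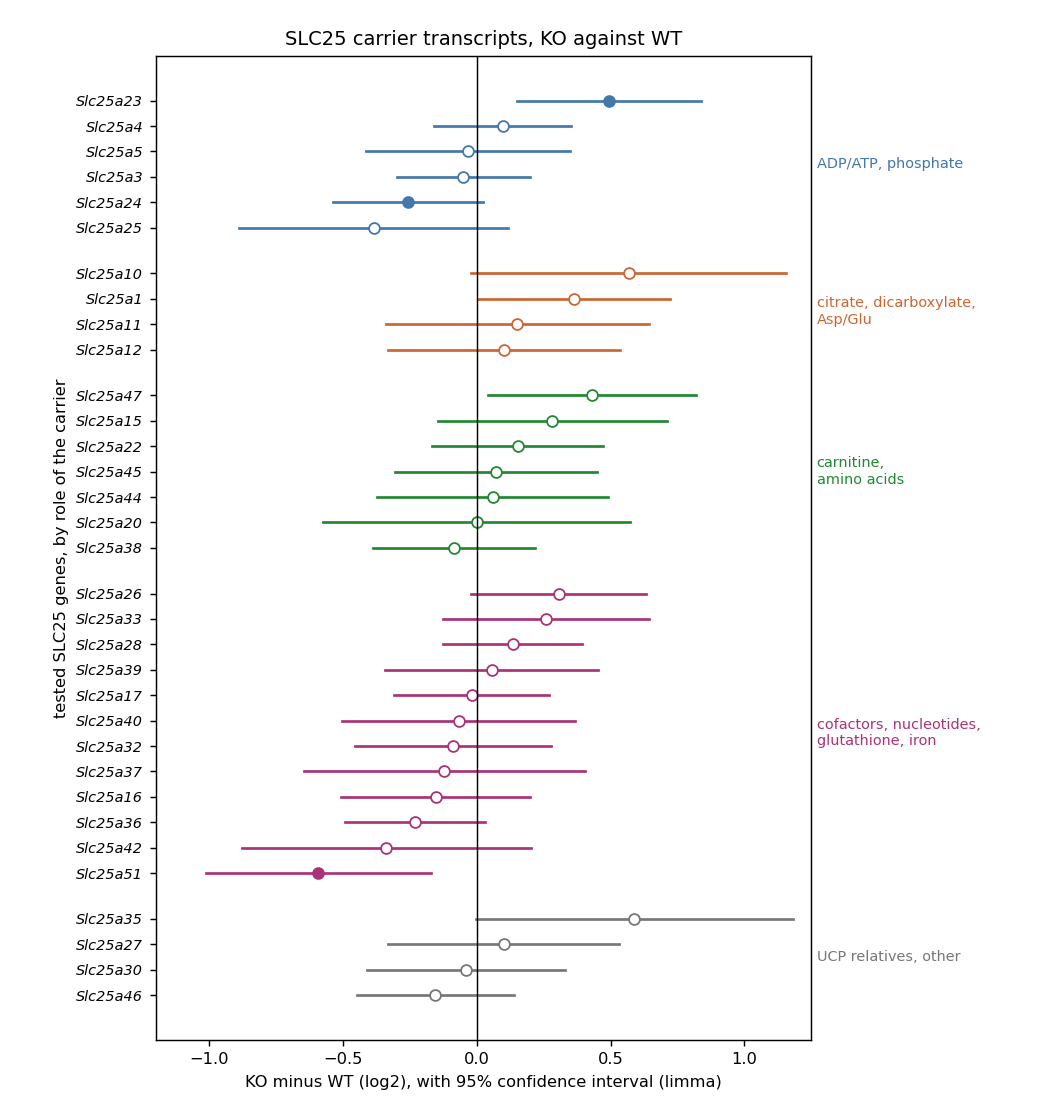
KO minus WT difference (x axis, log2) for the 33 tested SLC25 genes (y axis), in blocks by the role of the carrier. Points are limma estimates and bars are 95% confidence intervals; filled points mark the 3 genes whose KO and WT arrays did not overlap (Slc25a23, Slc25a24 and Slc25a51).

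The citrate carrier Slc25a1, which exports mitochondrial citrate as the source of cytosolic acetyl-CoA, read 9.43, 9.35 and 9.07 in WT 1 to WT 3. It read 9.69, 9.98, 9.63, 9.34 and 9.57 in KO 1 to KO 5. In 4 of 5 KO arrays it was above every WT array, and KO 4 lay within the WT range, just under WT 2. The means were 9.28 ± 0.187 (SD, n = 3) and 9.64 ± 0.232 (SD, n = 5). In limma they differed by 0.36 (SE 0.161) with an adjusted p of 0.466. The exact two-sided permutation p over the 56 ways of dividing the arrays was 0.107, where 0.0357 is the smallest possible. The unadjusted limma p of 0.0481 depended on single arrays: it stayed under 0.05 without WT 1 (0.0458) or KO 4 (0.0200), and with any other array left out it was higher, up to 0.196 without WT 3, where Slc25a1 was lowest.

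The other carriers of the citrate and malate exchange also had KO means above WT, without passing. Slc25a10, the dicarboxylate carrier that exchanges malate or succinate for phosphate, read 4.91, 5.28 and 5.22 in WT 1 to WT 3 and 5.93, 6.33, 5.18, 5.89 and 5.19 in KO 1 to KO 5. KO 1, KO 2 and KO 4 stood above all WT arrays, whereas KO 3 and KO 5 lay inside the WT range. Its log2 fold change was 0.57 (95% interval -0.02 to 1.15, adjusted p = 0.484 in limma), and it was 0.28 without KO 1 and KO 2. The oxoglutarate/malate carrier Slc25a11 had a log2 fold change of 0.15 (interval -0.34 to 0.64) and read from 6.69 in KO 5 to 7.71 in KO 1. Slc25a12, an aspartate/glutamate carrier of the malate-aspartate shuttle, had 0.10 (interval -0.33 to 0.54). It was lowest in KO 1 (5.76) and KO 2 (5.80) and highest in KO 3 (6.50), an order unlike that of the other 3. All 4 tested members of this role group were above 0 over the 8 arrays, with a median of 0.26. The direction did not hold for 2 of them: Slc25a12 was at -0.03 with the replicate number as a block, and Slc25a11 at -0.06 without KO 1 and KO 2. The block fit rests on same-numbered arrays, so KO 4 and KO 5, which have no WT counterpart, do not bear on its difference.

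The enzyme genes beside the citrate carrier were mixed. Of 12 tested genes for enzymes around the citrate and malate carriers, 8 had a log2 fold change above 0 and 4 below, with a median of 0.10, and 1 (8.33%, against 10.5% of all tested genes) had an unadjusted p under 0.05. With the replicate number as a block 11 were above 0 (median 0.24), and without KO 1 and KO 2 6 were (median -0.01). The gene with such a p was Idh2, the mitochondrial NADP-dependent isocitrate dehydrogenase, at 0.56 with no overlap between the groups. Got2, the mitochondrial aspartate aminotransferase, was at 0.70, but it read 10.21 in KO 4 against 7.48 to 8.67 in the other arrays. KO 4 is the array with high epididymal transcripts, whose part in that value was not tested. The carboxylase Acaca was at -0.33 and the cytosolic aminotransferase Got1 at 0.20. Fasn, the fatty acid synthase, was named after its values were seen: it read 10.91 in KO 1 and 11.68 in KO 2, the arrays in which Slc25a1 and Slc25a10 were also highest, and 9.62 to 10.51 in the others. Cs, Me1 and Mdh2 were likewise highest in KO 1 and KO 2, but the rest of the list was not. Acly, at -0.17, read 8.32 in KO 1 and 8.54 in KO 2 against 8.47 to 8.77 in WT. Acaca read 9.22 in KO 1 and 9.61 in KO 2 against 9.25 to 9.32 in WT.

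The carnitine carrier Slc25a20 did not separate the genotypes in either direction. It read 8.10, 7.39 and 7.56 in WT 1 to WT 3 and 7.995, 8.02, 7.88, 7.53 and 6.98 in KO 1 to KO 5. The highest array was WT 1 and the lowest KO 5, with the remaining KO arrays inside the WT range. The means were 7.68 ± 0.369 (SD, n = 3) and 7.68 ± 0.438 (SD, n = 5), and the log2 fold change was -0.001 (adjusted p = 0.999 in limma). Its 95% interval ran from -0.57 to 0.57, so differences within that span were not resolved. The sign depended on single arrays and on scaling: the log2 fold change was 0.21 without WT 1, 0.18 without KO 5, -0.15 without WT 2, 0.02 with each array centred on its median and 0.28 with the replicate number as a block.

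The genes for enzymes around this carrier were mixed. Of 11 tested, 7 had a log2 fold change above 0 and 4 below (median 0.07), and 2 (18.2%, against 10.5% of all tested genes) had an unadjusted p under 0.05, both higher in KO. The genes with such a p were the medium-chain dehydrogenase Acadm (0.32, no overlap) and the electron transfer enzyme Etfdh (0.29, overlapping). The groups did not overlap for 2 (18.2%, against 8.53%), Acadm and Cpt1a. Cpt1a, which makes the acylcarnitine that Slc25a20 imports, was at 0.32 with no overlap (7.38 to 7.82 in WT, 7.84 to 8.19 in KO), and Hadha, of the trifunctional protein, was at 0.25. The median of this list was 0.25 with the replicate number as a block, 0.19 without KO 5 and -0.09 without KO 1 and KO 2.

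Among the calcium-responsive ATP-Mg/phosphate carriers, which change the size of the matrix adenine nucleotide pool, paralogues lay on opposite sides. Slc25a23 read 8.08, 8.51 and 8.50 in WT 1 to WT 3 and 9.06, 8.95, 8.90, 8.78 and 8.59 in KO 1 to KO 5. Every KO array was above every WT array, although KO 5 exceeded WT 2 by little. The means were 8.36 ± 0.244 (SD, n = 3) and 8.86 ± 0.181 (SD, n = 5). In limma they differed by 0.49 (SE 0.155), 1.41-fold, with an adjusted p of 0.331. The exact permutation p was 0.0357, the smallest this design can give and not adjusted for the number of genes. Without WT 1, the lowest array, the log2 fold change was 0.35. Over 18 other settings its adjusted p ran from 0.128 to 0.762, and the lowest of these was also the lowest for any carrier under any setting.

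Slc25a24 read 6.56, 6.83 and 6.62 in WT 1 to WT 3 and 6.49, 6.46, 6.35, 6.51 and 6.24 in KO 1 to KO 5. All KO arrays were below all WT arrays, KO 4 lying just under WT 1. The log2 fold change was -0.26 (SE 0.125, adjusted p = 0.50 in limma), with means of 6.67 ± 0.143 (SD, n = 3) and 6.41 ± 0.115 (SD, n = 5), and the exact permutation p was again 0.0357. Slc25a25, the remaining tested paralogue, read 6.65, 6.09 and 5.69 in WT 1 to WT 3 and 5.46 to 6.11 in KO. Its groups overlapped, and its log2 fold change of -0.39 (SE 0.226) became -0.13 without WT 1, -0.61 without WT 3 and -0.57 with the replicate number as a block. Slc25a41, a further ATP-Mg/phosphate carrier, read 1.82 to 2.27, under the filter.

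The ADP/ATP translocases and the phosphate carrier, through which the ATP synthase is supplied, were close to equal in the groups. Slc25a4 read 8.16 to 8.31 in WT and 8.22 to 8.48 in KO, a log2 fold change of 0.10 (interval -0.16 to 0.35). The phosphate carrier Slc25a3 varied least of all tested members, from 7.87 to 8.10 over the 8 arrays, with a log2 fold change of -0.05 (interval -0.30 to 0.20). Slc25a5 read 10.34, 10.24 and 10.21 in WT 1 to WT 3, 10.31 to 10.42 in KO 1 to KO 4 and 9.71 in KO 5. Its log2 fold change of -0.03 turned to 0.10 without KO 5. Slc25a31, a translocase known from male germ cells, read 1.83 to 2.11 in all arrays, including WT 1 (2.11), WT 2 (1.92) and KO 4 (2.08), where testis and sperm markers were high.

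**Figure D2:**
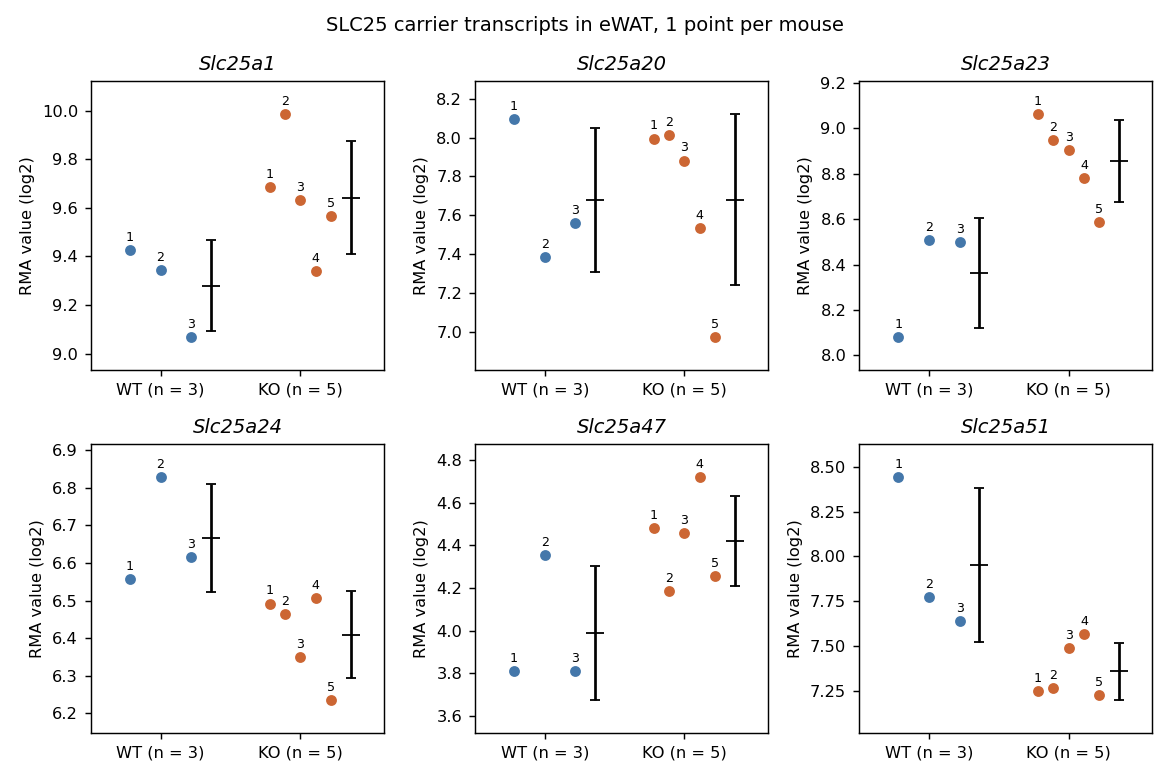
RMA value (y axis, log2) in each mouse for 6 carriers, with WT (n = 3) and KO (n = 5) on the x axis; points carry the replicate number, and bars show mean ± SD. KO and WT do not overlap for Slc25a23, Slc25a24 and Slc25a51, while Slc25a20 has equal means of 7.68 and WT 1 stands apart for Slc25a51 at 8.44.

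Among the cofactor carriers, Slc25a51, which brings NAD into mitochondria, had the most negative log2 fold change of the family. It read 8.44, 7.77 and 7.64 in WT 1 to WT 3 and 7.25, 7.26, 7.49, 7.57 and 7.23 in KO 1 to KO 5. All KO arrays were below all WT arrays, but WT 1 stood well above the other WT arrays and KO 4 lay just under WT 3. The means were 7.95 ± 0.431 (SD, n = 3) and 7.36 ± 0.157 (SD, n = 5). In limma the difference was -0.59 (SE 0.189) with an adjusted p of 0.335, and the exact permutation p was 0.0357. Without WT 1 it was -0.35. It was below 0 under all 18 other settings, with adjusted p values of 0.209 to 0.737, and its unadjusted p was under 0.05 in each of them.

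WT 1 set the value of another carrier in this group. Slc25a42, a coenzyme A carrier, read 8.0 in WT 1 against 6.81 to 6.99 in the other 7 arrays, so its log2 fold change of -0.34 became 0.04 without WT 1. WT 1 is the array with the highest testis and seminal vesicle transcripts. Testis and sperm markers, at 5.86 on average in WT 1, were also high in WT 2 (4.87) and KO 4 (4.52). The part of such transcripts in the values of Slc25a51, Slc25a42 and Slc25a25 was not tested. Slc25a16, linked to coenzyme A as well, was at -0.15, and the peroxisomal carrier Slc25a17 at -0.02. The S-adenosylmethionine carrier Slc25a26 read 4.73 to 4.93 in WT and 4.92 to 5.47 in KO, a log2 fold change of 0.31 (adjusted p = 0.495 in limma, exact permutation p = 0.0714). In 4 of 5 KO arrays it was above all WT arrays. The pyrimidine nucleotide carriers went apart, Slc25a33 at 0.26 (interval -0.13 to 0.64) and Slc25a36 at -0.23 (interval -0.49 to 0.03), with 4 of 5 KO arrays below WT for the latter. Slc25a33 moved with single WT arrays, to 0.47 without WT 1 and 0.09 without WT 3. The folate and FAD carrier Slc25a32 was at -0.09, and the glutathione carriers Slc25a39 and Slc25a40 were at 0.06 and -0.07.

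Of the iron importers, Slc25a37 (mitoferrin 1, the form prominent in erythroid cells) read 6.61 to 6.78 in WT and 6.85, 7.20, 6.43, 6.27 and 6.08 in KO 1 to KO 5. KO 1 and KO 2 lay above WT and the other 3 KO arrays below it, and the log2 fold change was -0.12 (interval -0.65 to 0.40). It was -0.43 without KO 1 and KO 2, -0.0002 without KO 5 and 0.14 with the replicate number as a block, so its direction was not settled. KO 1 and KO 2 were also the arrays with high Slc4a1, and the 3 erythroid markers measured averaged 3.03 in KO 1 and 3.58 in KO 2 against 2.11 to 2.48 in the other arrays, with Klf1 at 1.57 to 2.45 throughout. The part of blood cells in this value was not tested. Slc25a28 (mitoferrin 2, the widely expressed form) read 7.69 to 7.87 in WT and 7.80 to 8.02 in KO, a log2 fold change of 0.13. Of 10 tested mitochondrial iron and haem genes, 6 had a log2 fold change above 0 and 4 below (median 0.03). In this list 3 (30.0%, against 10.5% of all tested genes) had an unadjusted p under 0.05: the haem synthesis enzymes Alad (0.59) and Urod (0.37), and the iron-sulfur cluster glutaredoxin Glrx5 (-0.49), all 3 without overlap (30.0%, against 8.53%). The haem enzyme Ppox was at 0.32.

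Slc25a47, known mainly from liver, was listed with the carnitine and amino acid carriers, a placement not drawn from these data. It read 3.81, 4.35 and 3.81 in WT 1 to WT 3 and 4.48, 4.19, 4.46, 4.72 and 4.25 in KO 1 to KO 5. WT 2 lay inside the KO range, and all values were near the filter, where RMA compresses differences. Its log2 fold change was 0.43 (SE 0.175, adjusted p = 0.433 in limma, exact permutation p = 0.107). Its unadjusted limma p was under 0.05 in 10 of the 18 other settings. It was 0.106 with the replicate number as a block, 0.128 without WT 1 and 0.132 without WT 3. The ornithine carrier Slc25a15 was at 0.28 (interval -0.15 to 0.71), the glutamate carrier Slc25a22 at 0.15, Slc25a45 at 0.07, the branched-chain amino acid carrier Slc25a44 at 0.06 and the glycine carrier Slc25a38 at -0.09. None of these 5 passed.

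Of the uncoupling protein relatives and carriers of less settled role, Slc25a35 had the highest log2 fold change of the family. It read 5.69, 5.77 and 5.88 in WT 1 to WT 3 and 6.48, 6.83, 6.19, 6.79 and 5.55 in KO 1 to KO 5. It was above every WT array in 4 of 5 KO arrays and below them in KO 5. The log2 fold change was 0.59 (interval -0.004 to 1.18, adjusted p = 0.476 in limma, exact permutation p = 0.143), and 0.79 without KO 5. Another probe set, annotated to Rangrf and Slc25a35 together and so assignable to neither, had a WT mean of 3.72 ± 0.767 (SD, n = 3) and a KO mean of 3.41 ± 0.325 (SD, n = 5), on the opposite side. Slc25a35, Slc25a10, Slc25a11 and Slc25a39 lie on chromosome 11, as Abhd15 does. Slc25a27 was at 0.10, Slc25a30 at -0.04 and Slc25a46, an outer membrane protein linked to mitochondrial fission, at -0.16.

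The 13 members under the filter were Slc25a2, Slc25a13, Slc25a14, Slc25a18, Slc25a21, Slc25a29, Slc25a31, Slc25a34, Slc25a41, Slc25a43, Slc25a48, Slc25a53 and Slc25a54. Their single values ran from 1.44 to 4.83, and in none of them did the groups separate. The highest, 4.83, was Slc25a13 in KO 4, an aspartate/glutamate carrier that read 2.83 to 3.77 in the other arrays. Slc25a34 read 3.92 in WT 1 and 2.34 to 3.12 elsewhere.

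Single arrays stood out in many carriers, as the map of deviations shows. KO 5 was the lowest array for 16 of the 33 tested carriers (48.5%), against 28.9% of all tested genes, and its median deviation from the carriers' means was -0.16 against -0.09 over all tested genes. The adipocyte markers also averaged lowest in KO 5 (10.1), and the part of adipocyte content in these values was not tested. KO 2 was the highest array for 9 carriers (27.3%, against 11.8% of all tested genes), and WT 1 for 8 (24.2%, against 18.1%). WT 3 was the lowest array for 6 (18.2%, against 7.95%), and its median deviation over the carriers was -0.12 against 0.01 over all tested genes. Without KO 5 the carriers with an unadjusted p under 0.05 numbered 6 (18.2%, beside 14.4% of all tested genes; 5 higher and 1 lower), and 20 of 33 had a log2 fold change above 0. Without WT 1 they numbered 3 (9.09%), namely Slc25a1, Slc25a33 and Slc25a51, beside 6.72% of all tested genes.

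**Figure D3:**
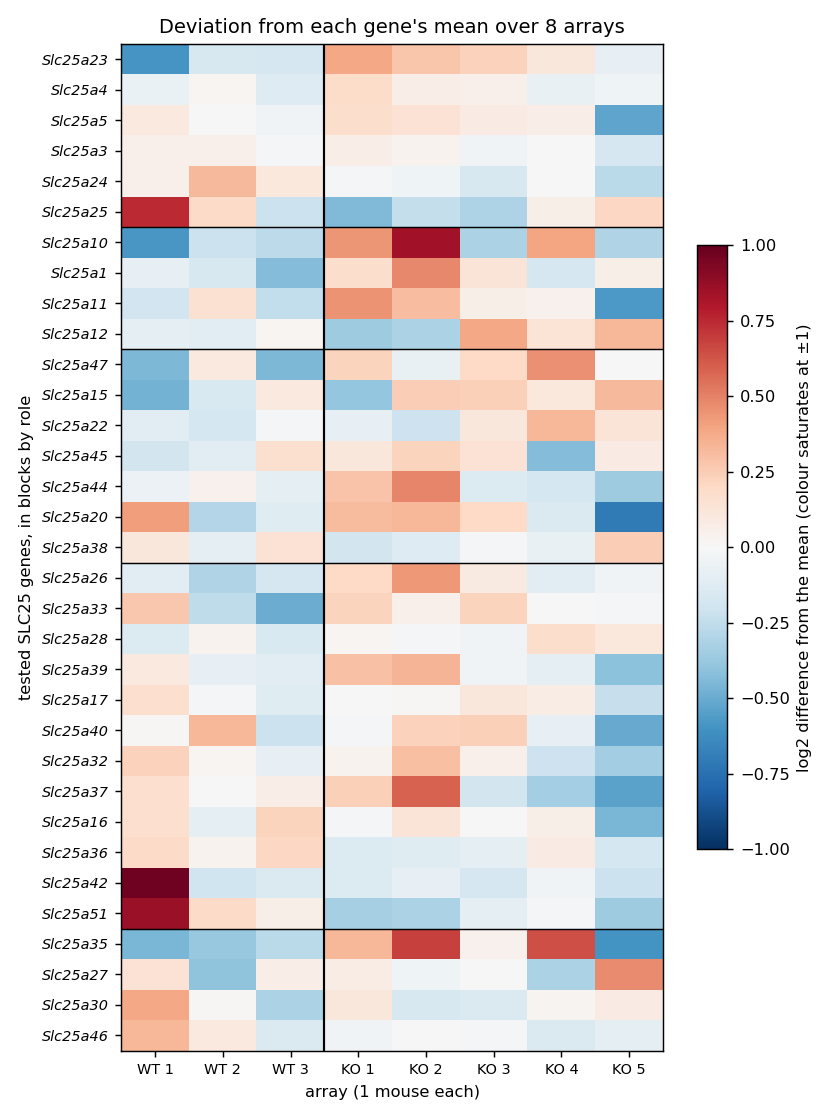
Deviation of each tested SLC25 gene (y axis, in blocks by role) from its own mean over the 8 arrays (x axis, 1 mouse each), in log2 units with red above and blue below the mean. The KO 5 column is blue in many rows, and the darkest red cell is Slc25a42 in WT 1, which read 8.0 against 6.81 to 6.99 elsewhere.

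The count also depended on scaling, array weights and the replicate block. With each array centred on its median, 7 carriers (21.2%, beside 10.5% of all tested genes) had an unadjusted p under 0.05, 6 higher and 1 lower, while the higher share of all such genes went from 38.5% to 48.7%. With array weights 9 carriers did (27.3%, beside 16.9% of all tested genes). With the replicate number as a block, where KO 4 and KO 5 do not bear on the difference, 8 did (24.2%, beside 18.0%), 6 higher and 2 lower. These 8 were Slc25a1, Slc25a10, Slc25a11, Slc25a23, Slc25a26 and Slc25a35, which were higher, and Slc25a25 and Slc25a51, which were lower. In that fit the log2 fold change of Slc25a1 was 0.49 (adjusted p = 0.179 in limma) and that of Slc25a23 was 0.61 (adjusted p = 0.169).

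Proteins of the same fold that carry other symbols gave 1 gene with an unadjusted p under 0.05 among 3 tested (33.3%, against 10.5% of all tested genes). This was Ucp3, an uncoupling protein known from muscle and brown fat, which read 6.36 to 7.24 in WT and 7.12 to 7.57 in KO, a log2 fold change of 0.61 (adjusted p = 0.352 in limma). Mtch1 was at 0.02 and Mtch2, an outer membrane insertase, at -0.13. Of 15 other mitochondrial membrane transporters 8 were above 0 and 7 below (median 0.07). Of these 15 only the sodium/lithium/calcium exchanger Slc8b1 (0.34) had an unadjusted p under 0.05 (6.67%, against 10.5% of all tested genes). The channel Vdac1 (0.21, no overlap), the pyruvate carrier subunit Mpc1 (0.44) and the sideroflexin Sfxn5 (0.24) did not. Of 13 genes for the import and insertion of carrier proteins, 3 were above 0 and 10 below (median -0.15), and none had an unadjusted p under 0.05. Tomm70a, the outer membrane receptor for carrier precursors, was at -0.26 with no overlap, Tomm40 at -0.27, and the small chaperones Timm10 and Timm9 at -0.28 and -0.32. Of 13 regulators of mitochondrial biogenesis 4 were above 0 and 9 below (median -0.24, and -0.13 without WT 1). Of these, 2 (15.4%, against 10.5% of all tested genes) had an unadjusted p under 0.05, the coactivator Ppargc1b (-0.72) and Pparg (-0.47), both without overlap (15.4%, against 8.53%), while Gabpa (-0.28) and Polrmt (-0.25) did not. No gene of these lists passed after adjustment.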

How the data were processed

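Gene expression in eWAT was measured on Affymetrix arrays, 200 ng of RNA per mouse. The authors deposited 1 log2 value per probe set and array; the submitters' processing notes name RMA and oligo, while the series design text names Expression Console. Versions and build: not given in the sources used here. Of 41345 probe sets, 23521 had 1 symbol, 1814 several and 16010 none listed. Entrez identifiers matched 23328 to current symbols (GRCm38.p6), including all 46 members. The probe set with the highest mean represented each gene. RMA compresses differences of dim probe sets, while precision is limited by the 8 arrays. Array pairs correlated at 0.962 to 0.978.

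The genotypes were compared with limma 3.58.1 (R 4.3.3), two-sided, with Benjamini-Hochberg adjustment over 11090 genes. Single values were also compared by exact permutation over 56 splits. The procedure was also run on simulated data with independent noise and arrays of equal quality. The fitted weights of the arrays here ran from 0.335 (KO 5) to 1.84 (WT 3). That run therefore cannot settle how the procedure performs on these arrays. Members with an unadjusted p under 0.05 or no overlap, and Slc25a1 and Slc25a20, are given array by array. Other tested members are named by role, and of each list up to 4 genes of smallest p. Slc25a10, Slc25a25, Slc25a35, Slc25a37 and others given by array beyond this rule were chosen after their values were seen. Members and lists were chosen with earlier results of these data known. Deviations of same-numbered WT and KO arrays correlated at 0.133, 0.103 and 0.192 for numbers 1, 2 and 3. Differently numbered arrays were not correlated beside them, so these values cannot decide whether the number marks pairs. The labels do not say what the number, taken from the titles, stands for. The reported values leave the number out except where the block is named. In that fit KO 4 and KO 5, with no same-numbered WT array, do not bear on the difference. Alternatives changed the filter, probe set choice, scaling, prior, array weights, block and arrays included.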

Additional observations from a re-analysis of the deposited data

Results flagged for a closer look

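In 3 carriers a single KO array stood apart from the other KO arrays, the gap exceeding the 95% critical value of Dixon's test (0.71 of the group's range for 5 samples). Slc25a5 read 9.71 in KO 5 against 10.31 to 10.42 in the other KO arrays. Slc25a16 read 7.38 in KO 5 against 7.82 to 7.96. Slc25a45 read 4.69 in KO 4 against 5.20 to 5.34. These are 9.09% of the 33 tested carriers, and 6.79% of all tested genes gave such a gap, where chance gives about 1 in 20 groups. The WT group of 3 was not tested in this way, so Slc25a42 in WT 1 does not appear here.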

How the results depend on the processing

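In all 18 alternatives were run, of which those without WT 1 and KO 4 and without KO 1 and KO 2 were chosen after seeing the data. No carrier passed an adjusted p of 0.05 under any of them, and 19 of 33 kept their sign in all. Genes called numbered 40 with array weights, 3 with a trended and robust prior, 2 with the replicate block and 0 to 5 with 1 array left out (5 without KO 5). Genes with an unadjusted p under 0.05 numbered 1873 with array weights, 1871 without the level filter, 1997 with the replicate block, 732 without WT 1 and KO 4, and 745 (without WT 1) to 1596 with 1 array left out. Carriers with an unadjusted p under 0.05 numbered 9 with array weights, 7 with centred arrays and 8 with the replicate block, and 3 to 6 with 1 array left out. The log2 fold change of Slc25a20 changed sign with array weights (0.25), centred arrays (0.0248), quantile normalization (0.0174), the replicate block (0.28) and without WT 1 and KO 4 (0.24), and with 1 array left out ran from -0.15 to 0.21. The median of the carriers was -0.02 to 0.08 with 1 array left out and -0.04 without KO 1 and KO 2. Slc25a1 ran from 0.23 to 0.51 over all settings. The replicate block called no carrier after adjustment; Slc25a47 no longer had an unadjusted p under 0.05 (0.106), and 5 others newly did. Of 252 values for the pathway lists, 241 stayed within the limits set for a change. The cause of these shifts was not tested.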
